A study of Homo sapiens with 12 samples.

Results

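The genes described here are 37 members of sphingolipid metabolism, chosen by gene symbol and looked up in 2 count tables that together list 23533 genes. The MEC1 table holds 36 of the 37 among 22441 genes (SGMS2 is not in it), and the JVM2 table holds all 37 among 17144. MEC1 and JVM2 are established human neoplastic B-cell lines, and each was studied as 2 stable cell populations with 3 biological replicates, 12 libraries in all. MEC1-2B17 and JVM2-2B17 cells carried a pcDNA6 vector with the UGT2B17 coding sequence under blasticidin selection. JVM2-CTRL cells carried the empty pcDNA6 vector under the same antibiotic, whereas MEC1-CTRL cells carried an shRNA that represses UGT2B17 and were kept in puromycin. The arms of MEC1 therefore differ in construct and antibiotic as well as in UGT2B17, and those factors cannot be told apart. UGT2B17 is a glucuronosyltransferase that conjugates steroids and other lipophilic molecules to glucuronic acid. The question asked of each gene was whether its RNA differed between the 2B17 and CTRL arms of a line, and whether that difference was alike in the other line.

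Sphingolipids are built on a long-chain sphingoid base. Serine palmitoyltransferase (SPT) joins serine and palmitoyl-CoA, and reduction, N-acylation by ceramide synthases and desaturation then give ceramide, the hub of the pathway. Ceramide is turned into sphingomyelin, into ceramide 1-phosphate, into glucosylceramide and the gangliosides, or is cleaved by ceramidases to sphingosine, which sphingosine kinases phosphorylate to the signalling lipid sphingosine 1-phosphate (S1P). In B cells, membrane sphingomyelin and gangliosides sit around the B-cell receptor, and S1P guides exit from lymphoid tissue.

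Library totals were 31762649 to 37744991 counts in MEC1 and 8809179 to 11231330 in JVM2, so small differences were easier to detect in MEC1. UGT2B17 itself had 11.8, 10.8 and 10.4 CPM (read counts scaled by effective library size) in MEC1-CTRL and 22.7, 20.6 and 20.1 in MEC1-2B17, and 29.8, 26.2 and 27.4 in JVM2-CTRL and 35.3, 45.3 and 35.6 in JVM2-2B17, higher in every 2B17 library of both lines. All 7 B-cell markers examined were listed in both lines, with summed levels of 3237 to 4131 CPM in the 4 groups. Summed T-cell markers (4 of 5 listed in MEC1, none in JVM2) reached 1.16 to 1.51 CPM in MEC1-CTRL and 2.19 to 2.45 in MEC1-2B17, and summed myeloid markers reached 2.35 to 2.92 CPM in MEC1-CTRL, 4.74 to 5.30 in MEC1-2B17, 5.41 to 6.58 in JVM2-CTRL and 11.2 to 13.8 in JVM2-2B17. Summed epithelial or fibroblast markers reached 2.44 to 2.92 CPM in MEC1-CTRL and 3.82 to 4.98 in MEC1-2B17, and 20.6 to 22.8 CPM in JVM2-CTRL and 18.8 to 21.0 in JVM2-2B17. Single genes weighed heavily in these sums. Of the myeloid markers, ITGAM rose from a mean of 1.29 to 3.89 CPM in MEC1 and from 4.87 to 11.3 in JVM2. CSF1R went the other way in MEC1 (-0.71, adjusted p = 0.0415, edgeR), and CD14 and FCGR3A stayed at or below 0.158 CPM there. Of the T-cell markers, CD247 rose from a mean of 0.868 to 2.02 CPM in MEC1 while CD2 went from 0.309 to 0.122. The part of these markers in the results was not tested. Replicate 3 of MEC1-CTRL and replicate 2 of JVM2-2B17 lay farthest from the other replicates of their groups, and calls of members that change without them are given below.

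Of the 37 genes, 35 passed the low-count filter in MEC1 and 34 in JVM2. In MEC1-2B17 cells, 10 of the 35 were higher and 11 were lower at an adjusted p below 0.05 by the edgeR quasi-likelihood test, where 20.0% of all 16581 tested genes were higher and 21.6% were lower (41.7% changed). In JVM2-2B17 cells, 5 of 34 were higher and 6 were lower, against 14.1% and 15.3% of all 13021 tested genes (29.3% changed). The 5 higher members became 3 without replicate 1 of JVM2-CTRL, 2 without its replicate 3 and 3 without replicate 3 of JVM2-2B17. The members' shares were 28.6% higher and 31.4% lower in MEC1, and 14.7% higher and 17.6% lower in JVM2, the last pair being near the background. The median member level was 38.8 CPM in MEC1 and 40.8 CPM in JVM2, against 16.3 and 28.6 CPM over all tested genes, and the part that this higher level plays in the shares was not tested. Median log2 fold changes of the members were 0.03 in MEC1 and 0.01 in JVM2, so the genes did not shift as a block in either line. Among changed members the median size was 0.32 on the log2 scale in both lines, against 0.32 for all changed genes in MEC1 and 0.45 in JVM2.

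Among the 34 members tested in both lines, 9 changed in both, and all 9 moved in opposite directions: SPTLC2, CERS6, ACER2, B4GALT5 and B4GALT6 were higher in MEC1-2B17 and lower in JVM2-2B17, and ORMDL3, SGPP2, UGCG and ST3GAL5 were lower in the 2B17 arm of MEC1 and higher in that of JVM2. In the edgeR fit 0 members changed in the same direction in both lines, and 0 did so with DESeq2, while at an unadjusted p under 0.05 there were 5, KDSR and ASAH1 higher and SGMS1, SMPD4 and GBA2 lower in both. Over all 12243 genes tested in both lines, 7.43% changed in opposite directions and 8.37% in the same direction, so that the members' 26.5% and 0 stand on either side of the whole table. The 3 libraries of each arm did not overlap in either line for any of the 9, although arms that do not overlap were also seen for 50.1% of all tested genes in MEC1 and 45.2% in JVM2. Whatever the p-value, the log2 fold changes of 20 of the 34 members had opposite signs, 58.8% against 49.8% of all genes. When the difference between the lines was tested directly as the interaction of line and arm, 18 of 35 members (51.4%) passed, against 32.0% of 15130 genes. The 9 opposite members became 6 to 10 when single libraries were left out. Without replicate 2 of JVM2-2B17, 14 members changed in JVM2 (5 higher, 9 lower) and 2 changed in the same direction in both lines, ASAH1 (0.22 in JVM2, adjusted p = 0.0394) and SGMS1 (-0.21, adjusted p = 0.00479). In that fit GALC (-0.40, adjusted p = 0.0204) and SGMS2 (-2.49, adjusted p = 0.00187) also fell in JVM2, and GALC was among 10 opposite members. ORMDL2 (0.34, adjusted p = 0.0371) and SGPL1 (-0.21, adjusted p = 0.0452) then also passed the interaction test. Without replicate 3 of MEC1-CTRL, 9 members were higher and 12 lower in MEC1, with GALC no longer called and SMPD1 called lower (-0.215, adjusted p = 0.0479).

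**Figure D1:**
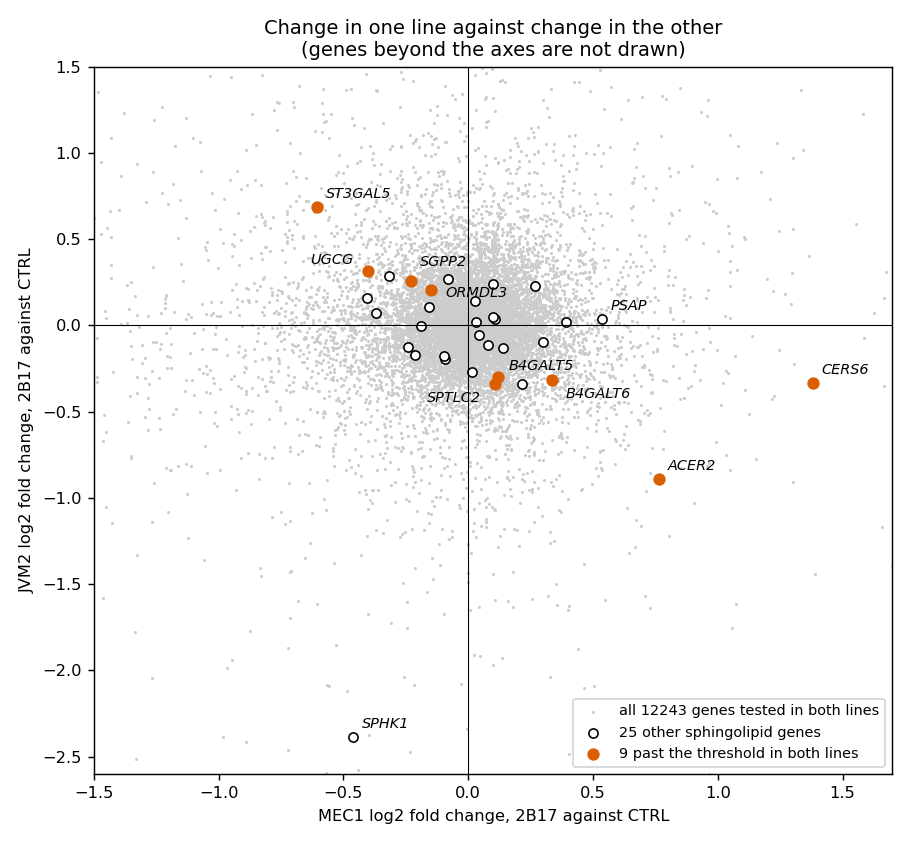
Log2 fold change of 2B17 against CTRL in MEC1 (horizontal) and in JVM2 (vertical) for the 12243 genes tested in both lines (gray), the 9 sphingolipid genes past the threshold in both lines (orange) and the other 25 tested in both (open circles). Gray genes beyond the axes are not drawn. All 9 orange points lie in the upper left or the lower right quadrant, while PSAP lies far out along the MEC1 axis only and SPHK1 along the JVM2 axis.

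For 4 of these 9 genes RefSeq (GRCh38.p14) gives a single start that meets the start of the annotated gene, and the 250 bases before it are shown to let the promoters of an adjoining pair of enzymes that moved oppositely, UGCG and B4GALT5, be read beside those of SPTLC2 and ACER2. Each is written 5′ to 3′ on the gene's own strand, and capitals mark every GGGCGG or CCGCCC, the 2 readings of the GC box to which Sp1-family factors can bind, with adjoining matches run together.
SPTLC2, chr14:77616638-77616887, minus strand: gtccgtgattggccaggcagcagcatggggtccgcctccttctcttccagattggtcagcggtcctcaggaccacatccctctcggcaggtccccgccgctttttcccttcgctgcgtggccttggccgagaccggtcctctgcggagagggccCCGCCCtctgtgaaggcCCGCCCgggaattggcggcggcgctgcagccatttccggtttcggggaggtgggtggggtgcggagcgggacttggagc
ACER2, chr9:19408759-19409008, plus strand: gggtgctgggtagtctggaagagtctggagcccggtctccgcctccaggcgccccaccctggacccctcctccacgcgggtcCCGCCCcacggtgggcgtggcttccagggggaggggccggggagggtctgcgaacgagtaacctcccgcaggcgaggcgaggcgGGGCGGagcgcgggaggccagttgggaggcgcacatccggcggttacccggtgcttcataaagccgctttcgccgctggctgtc
UGCG, chr9:111896564-111896813, plus strand: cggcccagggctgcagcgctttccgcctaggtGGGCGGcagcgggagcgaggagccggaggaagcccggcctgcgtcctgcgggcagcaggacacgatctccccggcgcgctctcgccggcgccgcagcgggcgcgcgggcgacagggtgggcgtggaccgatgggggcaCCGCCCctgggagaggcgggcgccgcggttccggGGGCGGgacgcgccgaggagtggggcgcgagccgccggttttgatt
B4GALT5, chr20:49713879-49714128, minus strand: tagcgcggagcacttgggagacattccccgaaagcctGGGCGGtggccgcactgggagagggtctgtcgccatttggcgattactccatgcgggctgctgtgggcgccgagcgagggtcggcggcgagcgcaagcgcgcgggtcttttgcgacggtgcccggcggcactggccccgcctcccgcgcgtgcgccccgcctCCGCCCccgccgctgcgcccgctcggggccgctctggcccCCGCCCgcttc
SPTLC2 and ACER2 held 2 GC boxes each and UGCG and B4GALT5 held 3 each, with GC contents of 68.4%, 72.4%, 78.4% and 75.6% against a median of 58.0% over all windows. UGCG and B4GALT5 moved in opposite directions in both lines, and SPTLC2 and ACER2 also moved opposite to UGCG. The part of the GC boxes in these changes was not tested. RefSeq windows were found for 27 of the 37 members (45 windows), and GGGCGG or its reverse complement was present in at least 1 window of each of the 27, and in 33 of the 45 windows, against 42.6% of 35116 windows. The 42.6% is a share of windows, and no share per gene was computed for all genes. The part of GC content in these counts was not tested. The 6-base E box CACGTG (7.26% of all 300-base windows) and the longer lysosomal CLEAR element TCACGTGA, which contains it (0.98%), were not found on either strand in any member window. These are matches of letters and not measured binding.

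The first step of the pathway is catalysed by SPT, whose SPTLC1 subunit pairs with SPTLC2 or SPTLC3. SPTLC1 (chr9:92000087-92115413 on hg38, all positions being those of the whole gene) had 99.5, 101 and 103 CPM in MEC1-CTRL and 79.4, 78.7 and 76.3 CPM in MEC1-2B17. All 3 2B17 libraries lay below all 3 CTRL libraries, and SPTLC1 fell there, its log2 fold change (± SE, n = 3 per arm, as for all such values) being -0.37 ± 0.03, adjusted p = 5.39e-08. Values in JVM2 were 71.8, 75.1 and 74.9 CPM in JVM2-CTRL and 76.8, 83.7 and 72.6 CPM in JVM2-2B17, and the arms overlapped (0.07 ± 0.07, adjusted p = 0.464). The difference between the lines was -0.44 ± 0.07, adjusted p = 0.000103 on the log2 scale.

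SPTLC2 (chr14:77505997-77616637), the partner that carries the active-site lysine, had 96.3, 92.3 and 94.8 CPM in MEC1-CTRL and 103, 105 and 97.9 CPM in MEC1-2B17. JVM2 cells had 92, 92.6 and 92.5 CPM in JVM2-CTRL and 68, 77.6 and 73.3 CPM in JVM2-2B17. The arms did not overlap in either line, and SPTLC2 rose in MEC1 (0.11 ± 0.04, adjusted p = 0.0208) and fell in JVM2 (-0.34 ± 0.06, adjusted p = 0.00151), a difference of 0.46 ± 0.07, adjusted p = 7.34e-05. The MEC1 rise is small, and it was lost without replicate 2 of MEC1-CTRL or without replicate 1 or 2 of MEC1-2B17 (adjusted p up to 0.125). SPTLC3, the alternative partner, stayed at or below 0.743 CPM in every library of both lines and was not tested, so SPTLC2 made up 99.2% to 99.9% of the summed SPTLC2 and SPTLC3 level per kilobase of transcript in the 4 groups.

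SPT also has small subunits and inhibitors. SPTSSA, a small subunit which raises SPT activity, did not pass the test in either line (0.03 and 0.02). The ORMDL proteins hold SPT back when ceramide is plentiful. ORMDL3 (chr17:39921041-39927601) had 75.4, 74.5 and 72.3 CPM in MEC1-CTRL and 65.8, 67.8 and 66.9 CPM in MEC1-2B17. The JVM2 libraries held 115, 115 and 103 CPM in JVM2-CTRL and 127, 133 and 124 CPM in JVM2-2B17. It fell in every MEC1-2B17 library and rose in every JVM2-2B17 library, by -0.15 ± 0.04, adjusted p = 0.00348, and 0.21 ± 0.06, adjusted p = 0.0307. The JVM2 rise did not pass without replicate 2 or 3 of JVM2-CTRL or replicate 1 of JVM2-2B17 (adjusted p up to 0.149). ORMDL1 was higher in JVM2 only just past the threshold (0.27 ± 0.09, adjusted p = 0.0443), a call lost with DESeq2, with scaling by library size (adjusted p up to 0.0704) and without replicate 1 or 3 of JVM2-CTRL or replicate 2 or 3 of JVM2-2B17 (up to 0.164), and its MEC1 value was -0.08 ± 0.04, adjusted p = 0.103. The difference between the lines was -0.35 ± 0.10, adjusted p = 0.00868 for ORMDL1 and -0.35 ± 0.07, adjusted p = 0.00101 for ORMDL3. ORMDL2 passed in neither line (0.14 and -0.13), and 52.6% of the 50-base stretches of its transcript also occur in transcripts of other genes, chiefly DNAJC14. Of the 6 tested genes of this first step, 1 rose and 2 fell in MEC1, and 2 rose and 1 fell in JVM2. The changed share of all tested genes was 41.7% in MEC1 and 29.3% in JVM2.

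Downstream of SPT, KDSR reduces the first product, ceramide synthases attach a fatty acid, and the desaturase DEGS1 makes ceramide. KDSR, CERS2, CERS4 and CERS5 did not pass the test in either line, with log2 fold changes from 0.03 to 0.11 in MEC1 and from -0.06 to 0.24 in JVM2. CERS2, which favours very long acyl chains, had 102, 100.7 and 103 CPM in MEC1-CTRL and 107, 103 and 106 CPM in MEC1-2B17. The JVM2 values were 94.8, 87.8 and 90.6 CPM in JVM2-CTRL and 92.2, 87.1 and 82.7 CPM in JVM2-2B17, and its changes were 0.04 ± 0.03 and -0.06 ± 0.06. DEGS1 (chr1:224175756-224193441) had 57.3, 60.05 and 62.7 CPM in MEC1-CTRL and 45.5, 43.7 and 46.7 CPM in MEC1-2B17. It fell in MEC1 without overlap (-0.40 ± 0.05, adjusted p = 7.91e-07), while in JVM2, at 60.3, 69.4 and 69.4 CPM against 71.8, 81.7 and 68.6, the arms overlapped (0.16 ± 0.08, adjusted p = 0.173). Its difference between the lines was -0.56 ± 0.09, adjusted p = 0.000111.

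CERS6 (chr2:168456249-168775134), the synthase that favours C16 ceramide, was the member whose level differed most visibly between the lines. It had 164, 197 and 196 CPM in JVM2-CTRL and 150.2, 142 and 149 CPM in JVM2-2B17, and 0.684, 0.552 and 0.633 CPM in MEC1-CTRL and 1.303, 2.02 and 1.58 CPM in MEC1-2B17. The MEC1 values rest on 26, 19 and 21 counts in the CTRL libraries and 44, 66 and 50 in the 2B17 libraries. CERS6 rose in MEC1 (1.38 ± 0.22, adjusted p = 4.82e-05) and fell in JVM2 (-0.34 ± 0.07, adjusted p = 0.00466), with a difference of 1.72 ± 0.23, adjusted p = 6.45e-06. In each line the 2B17 arm lay wholly on one side of the CTRL arm, so that 2B17 cells of the line with scarce CERS6 had more and those of the line with abundant CERS6 had less. The antisense gene CERS6-AS1 shares 43.8% of the 50-base stretches of the CERS6 transcript and is not among the genes listed here, and reads of the pair may not be separable.

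Expressed per kilobase of canonical transcript, a scale on which genes can be compared, CERS2 held 75.5% ± 0.77 (SD, n = 3) of the summed ceramide synthase level in MEC1-CTRL and 74.7% ± 0.59 in MEC1-2B17, against 46.8% ± 1.91 in JVM2-CTRL and 48.5% ± 1.01 in JVM2-2B17. CERS6 held 0.16% ± 0.015 and 0.40% ± 0.094 in the MEC1 arms and 32.6% ± 3.17 and 27.9% ± 1.08 in the JVM2 arms. The lead of CERS2 over CERS6 in JVM2 depends on the length used: with counts not divided by length CERS6 led, at 59.3% in JVM2-CTRL and 53.9% in JVM2-2B17. With the merged length of all exons CERS6 led as well. It then held 50.3% against 36.5% for CERS2 in JVM2-CTRL, and 45.0% against 39.4% in JVM2-2B17. The scarcity of CERS6 in MEC1 did not depend on it. The 2 lines were sequenced to different depths and normalized separately, and their levels are set side by side without a test.

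**Figure D2:**
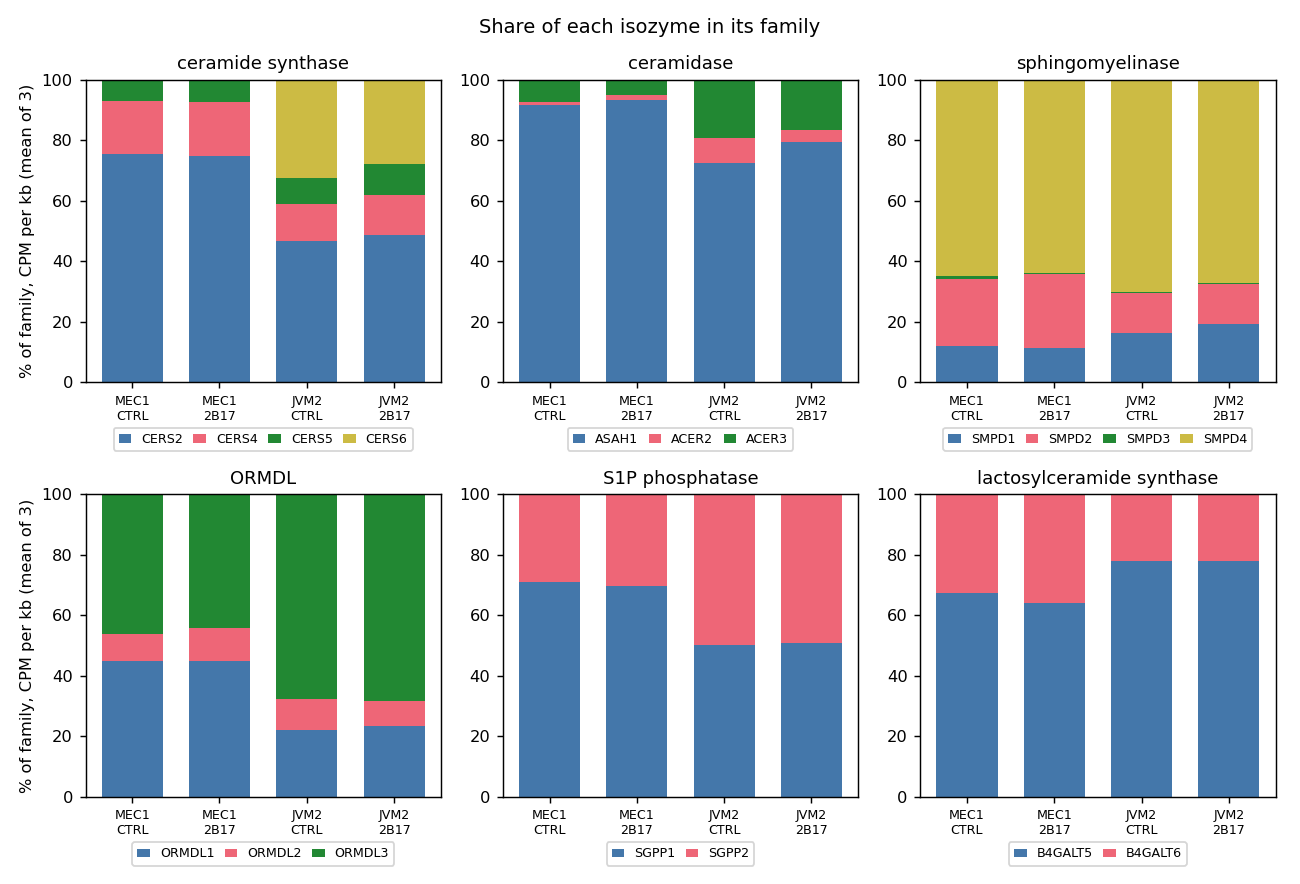
Share of each isozyme in the summed level of its family (percent, CPM per kilobase of canonical transcript, mean of 3 libraries) for 6 families in the 4 groups. The bars differ more between the lines than between the arms of a line, most plainly for CERS6, ORMDL3 and SGPP2.

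Ceramidases cleave ceramide at acid, neutral or alkaline pH. ASAH1, the lysosomal acid ceramidase, had 104, 111 and 108 CPM in MEC1-CTRL and 128, 132 and 129 CPM in MEC1-2B17. It rose in MEC1 (0.27 ± 0.03, adjusted p = 2.22e-06). Values in JVM2 were 31.5, 37.2 and 32.5 CPM in JVM2-CTRL and 41.2, 39.9 and 37.2 CPM in JVM2-2B17, again without overlap and with a similar size (0.23 ± 0.09, adjusted p = 0.0655), the MEC1 change minus the JVM2 change being 0.05 ± 0.08, adjusted p = 0.716. ASAH1 held 91.6% ± 0.09 of the summed ceramidase level per kilobase in MEC1-CTRL, 93.1% ± 0.45 in MEC1-2B17, 72.5% ± 1.88 in JVM2-CTRL and 79.3% ± 1.62 in JVM2-2B17.

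ACER2 (chr9:19409009-19452505, on the short arm of chromosome 9), the Golgi alkaline ceramidase, was expressed at a low level. It had 1.29, 1.57 and 1.33 CPM in MEC1-CTRL and 1.93, 2.73 and 2.46 CPM in MEC1-2B17. JVM2 cells had 4.18, 3.36 and 3.71 CPM in JVM2-CTRL and 2.36, 1.69 and 1.92 CPM in JVM2-2B17. These values rest on 42, 36 and 35 counts in JVM2-CTRL and 26, 15 and 17 in JVM2-2B17. ACER2 rose in MEC1 (0.76 ± 0.17, adjusted p = 0.00124) and fell in JVM2 (-0.89 ± 0.22, adjusted p = 0.00876), without overlap in either, and the difference was 1.66 ± 0.28, adjusted p = 0.000129. Of the 50-base stretches of its transcript, 9.84% also occur in the pseudogene ACER2P1. ACER3, the other alkaline ceramidase measured, fell in MEC1 (-0.24 ± 0.06, adjusted p = 0.0022) and was -0.13 ± 0.10, adjusted p = 0.397 in JVM2.

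In sphingomyelin turnover, 2 of the 5 genes tested in MEC1 changed, SGMS1 and SMPD3, both lower, and the 4 that passed the filter in JVM2 did not pass the test. Over all tested genes 41.7% changed in MEC1 and 29.3% in JVM2, so the MEC1 count was near the background. SGMS1, the Golgi sphingomyelin synthase, had 13.4, 14.2 and 12.7 CPM in MEC1-CTRL and 12.1, 11.2 and 11.5 CPM in MEC1-2B17. It was lower in MEC1 (-0.21 ± 0.07, adjusted p = 0.0188), a call lost with DESeq2 (adjusted p = 0.0581) and without replicate 2 of MEC1-CTRL or replicate 2 or 3 of MEC1-2B17 (up to 0.108). In JVM2, where it had 114, 122 and 119 CPM in JVM2-CTRL and 98.9, 110.2 and 106 CPM in JVM2-2B17, the arms did not overlap but the test was not passed (-0.17 ± 0.06, adjusted p = 0.0586). SGMS2, the plasma membrane synthase, was not listed in MEC1 and had 13, 15 and 8 counts in JVM2-CTRL and 1, 1 and 3 counts in JVM2-2B17. All 3 2B17 libraries lay below all 3 CTRL libraries, but the gene was removed by the low-count filter, and without that filter its log2 fold change was -2.68 (adjusted p = 0.00222). SGMS2 was also called lower without replicate 1, 2 or 3 of JVM2-2B17 or replicate 3 of JVM2-CTRL (adjusted p up to 0.0143).

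Of the sphingomyelinases, SMPD1 (the lysosomal acid enzyme), SMPD2 and SMPD4 did not pass the test in either line, with log2 fold changes from -0.16 to 0.08 in MEC1 and from -0.19 to 0.11 in JVM2. Without replicate 3 of MEC1-CTRL, SMPD1 passed as lower in MEC1 (-0.215, adjusted p = 0.0479). SMPD4 held 63.8% to 70.3% of the summed sphingomyelinase level per kilobase in the 4 groups, and 46.2% to 53.2% with merged exon lengths. Of its 50-base stretches, however, 35.0% occur in other transcripts, mostly its own pseudogenes. SMPD3 (chr16:68358327-68448508), the neutral sphingomyelinase linked to exosome release, had 1.76, 1.86 and 1.78 CPM in MEC1-CTRL and 1.01, 0.796 and 0.852 CPM in MEC1-2B17. It fell in MEC1 without overlap (-1.02 ± 0.18, adjusted p = 0.000127). The JVM2 libraries held 10, 7 and 6 counts in JVM2-CTRL and 2, 2 and 3 counts in JVM2-2B17, too few to pass the filter, and without the filter its log2 fold change was -1.59 (adjusted p = 0.0393). In the joint fit of both lines its difference was 0.61 ± 0.53, adjusted p = 0.472. The neighbouring gene PRMT7 shares 35.1% of the SMPD3 transcript's stretches, and PRMT7 itself had a log2 fold change of 0.12 ± 0.05 in MEC1.

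The phosphates of sphingosine and ceramide are made by SPHK1, SPHK2 and CERK and removed by the S1P phosphatases SGPP1 and SGPP2 or the S1P lyase SGPL1. SPHK1 (chr17:76376584-76387860) had 2.59, 1.40 and 1.06 CPM in JVM2-CTRL and 0.272, 0.450 and 0.226 CPM in JVM2-2B17, from 26, 15 and 10 and 3, 4 and 2 counts. It fell in JVM2 with the largest fold change among the members tested there (-2.39 ± 0.49, adjusted p = 0.00306). In MEC1 it had 0.421, 0.349 and 0.813 CPM in MEC1-CTRL and 0.355, 0.337 and 0.442 CPM in MEC1-2B17, with overlapping arms (-0.46 ± 0.34, adjusted p = 0.301). The difference between the lines, 1.96 ± 0.67, adjusted p = 0.0293, did not pass without replicate 1 or 2 of MEC1-CTRL, replicate 3 of MEC1-2B17, replicate 1 of JVM2-CTRL or replicate 1 or 3 of JVM2-2B17 (adjusted p 0.0550 to 0.0983). SPHK2 carried 92.3% to 98.1% of the summed kinase level per kilobase in the 4 groups and did not pass in either line (0.01 ± 0.07, adjusted p = 0.897, and -0.27 ± 0.10, adjusted p = 0.0638).

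Both S1P phosphatases fell in MEC1. SGPP1 (chr14:63684216-63728065) had 73.4, 72 and 71.7 CPM in MEC1-CTRL and 58.5, 58.9 and 56.6 CPM in MEC1-2B17 (-0.32 ± 0.04, adjusted p = 1.65e-06). The JVM2 values were 30.9, 39 and 40.2 CPM in JVM2-CTRL and 39.7, 50.6 and 44.6 CPM in JVM2-2B17, where the arms overlapped (0.29 ± 0.11, adjusted p = 0.0708), and its difference was -0.60 ± 0.11, adjusted p = 0.000332. SGPP2 (chr2:222424543-222562621) had 46.3, 44.2 and 41.5 CPM in MEC1-CTRL and 37.5, 36.8 and 38.3 CPM in MEC1-2B17. Values in JVM2 were 52.3, 55.9 and 53.8 CPM in JVM2-CTRL and 67.7, 57 and 69 CPM in JVM2-2B17. SGPP2 fell in MEC1 (-0.23 ± 0.05, adjusted p = 0.000894) and rose in JVM2 (0.26 ± 0.08, adjusted p = 0.0281), a difference of -0.48 ± 0.09, adjusted p = 0.000379, but the JVM2 rise passed in 1 of the 6 fits without a single library, the one without replicate 2 of JVM2-2B17 (adjusted p 0.0640 or more in the others). SGPL1, which degrades S1P irreversibly, fell in MEC1 (-0.19 ± 0.04, adjusted p = 0.00183) and was -0.00 ± 0.07, adjusted p = 0.976 in JVM2. SGPP1, SGPP2 and SGPL1 were thus all lower in MEC1-2B17 cells, where 21.6% of all tested genes were lower. CERK (chr22:46684410-46738252), which makes ceramide 1-phosphate, had 59.5, 62.5 and 59.97 CPM in MEC1-CTRL and 80.1, 80.6 and 77.9 CPM in MEC1-2B17. It rose in MEC1 (0.39 ± 0.04, adjusted p = 1.11e-07), whereas in JVM2 it had 88.3, 77.6 and 81 CPM in JVM2-CTRL and 81.2, 86.1 and 82.5 CPM in JVM2-2B17 (0.02 ± 0.07, adjusted p = 0.876), a difference of 0.38 ± 0.07, adjusted p = 0.000408.

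Glycosphingolipid synthesis was the only group in which every member changed in both lines (4 of 4, against 1935 of all 12243 genes tested in both). The MEC1 call of B4GALT5 among them was lost without single libraries, as given below. UGCG adds glucose to ceramide, B4GALT5 and B4GALT6 add galactose to give lactosylceramide, and ST3GAL5 adds sialic acid to give the ganglioside GM3. The first and the last of these steps were lower in 2B17 cells of MEC1 and higher in those of JVM2, and the middle step went the other way in both. UGCG (chr9:111896814-111935369) had 133, 140.1 and 137 CPM in MEC1-CTRL and 106, 104 and 100.4 CPM in MEC1-2B17. JVM2 cells had 88.7, 104 and 101.5 CPM in JVM2-CTRL and 117, 130.5 and 118 CPM in JVM2-2B17. It fell in MEC1 (-0.40 ± 0.03, adjusted p = 1.34e-08) and rose in JVM2 (0.31 ± 0.07, adjusted p = 0.00671), and the difference was -0.71 ± 0.08, adjusted p = 1.54e-06. The MEC1 fall of UGCG was near the median of -0.39 of the long arm of chromosome 9, and the 2 cannot be told apart.

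B4GALT5 (chr20:49632945-49713878) had 71.9, 68.2 and 75.9 CPM in MEC1-CTRL and 77.5, 76.5 and 80.3 CPM in MEC1-2B17. The JVM2 libraries held 131, 132 and 129 CPM in JVM2-CTRL and 111, 97.2 and 109.7 CPM in JVM2-2B17. It rose slightly in MEC1 (0.12 ± 0.04, adjusted p = 0.0311), a call lost without replicate 1 or 2 of MEC1-CTRL or replicate 3 of MEC1-2B17 (adjusted p up to 0.212), and fell in JVM2 (-0.30 ± 0.06, adjusted p = 0.00373). B4GALT6 (chr18:31622246-31685836) had 33.6, 35 and 34.4 CPM in MEC1-CTRL and 41.6, 45 and 43.4 CPM in MEC1-2B17. The JVM2 values were 34.6, 36.1 and 39.1 CPM in JVM2-CTRL and 29.6, 29.4 and 29 CPM in JVM2-2B17. It rose in MEC1 (0.33 ± 0.05, adjusted p = 1.22e-05) and fell in JVM2 (-0.32 ± 0.08, adjusted p = 0.00932). The call in JVM2 was lost without replicate 3 of JVM2-CTRL (adjusted p = 0.0621). The differences between the lines were 0.42 ± 0.08, adjusted p = 0.000225 for B4GALT5 and 0.65 ± 0.09, adjusted p = 8.05e-06 for B4GALT6. B4GALT5 held 67.4% ± 1.45 and 64.1% ± 1.16 of the pair's summed level per kilobase in the CTRL and 2B17 arms of MEC1, and 78.0% ± 1.20 and 78.1% ± 1.31 in those of JVM2.

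ST3GAL5 (chr2:85837120-85905199) had 9.49, 8.57 and 7.95 CPM in MEC1-CTRL and 5.06, 6.28 and 5.80 CPM in MEC1-2B17. Values in JVM2 were 13.6, 15 and 13.7 CPM in JVM2-CTRL and 23.2, 22.2 and 22.6 CPM in JVM2-2B17. It was lower in every MEC1-2B17 library (-0.61 ± 0.10, adjusted p = 5.6e-05) and higher in every JVM2-2B17 library (0.69 ± 0.09, adjusted p = 0.000147), which gave a difference of -1.29 ± 0.14, adjusted p = 3.45e-07 between the lines, and it passed in every alternative and every fit without 1 library in both lines.

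**Figure D3:**
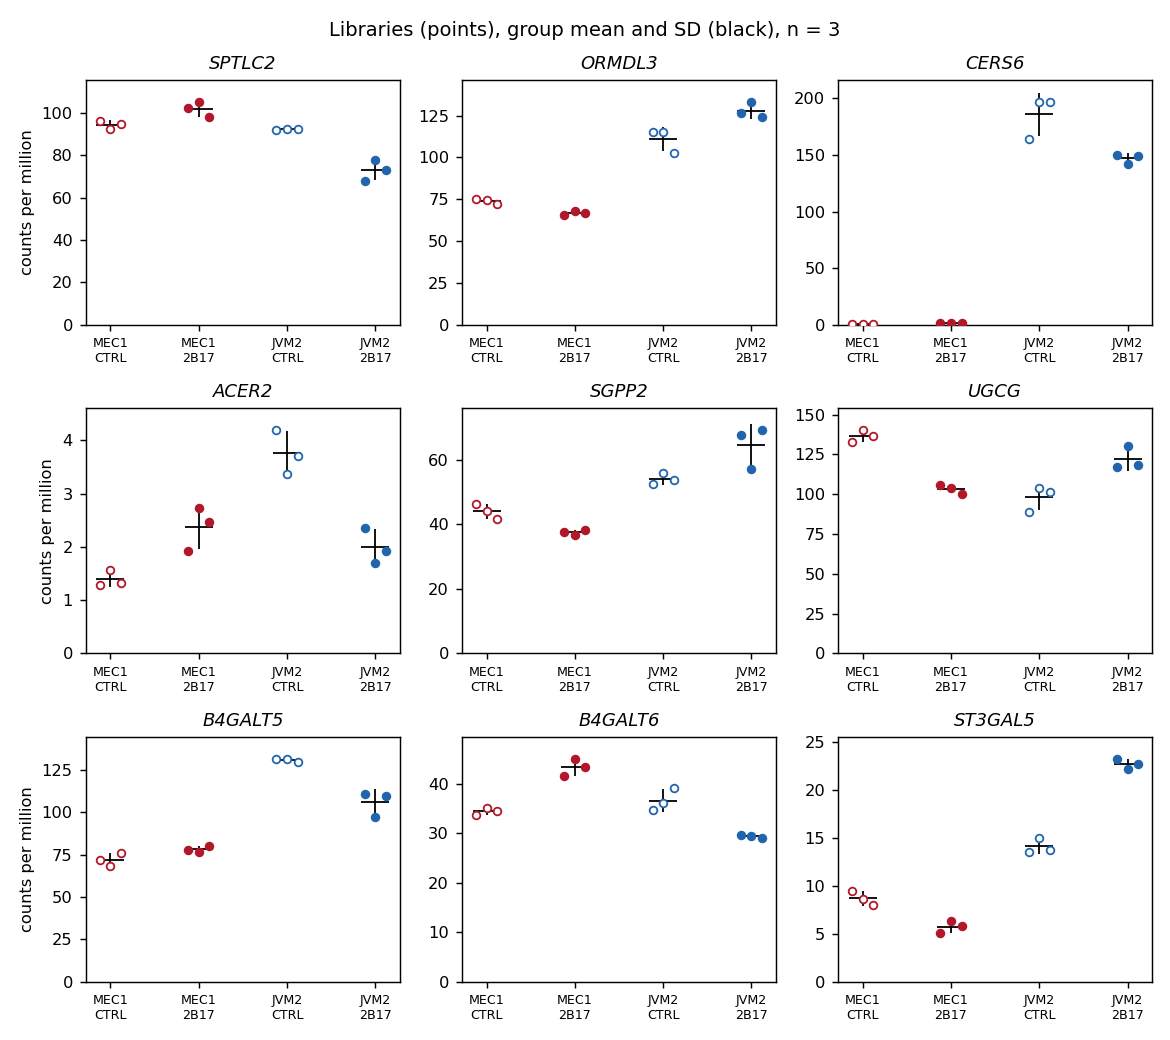
Level in CPM of the 9 genes that changed in both lines, with 1 point per library (open, CTRL; filled, 2B17) and the group mean and SD in black (n = 3). In every panel the step from CTRL to 2B17 goes one way in MEC1 (red) and the other way in JVM2 (blue); CERS6 in MEC1 stays at or below 2.02 CPM, near the foot of its panel.

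Breakdown of glycosphingolipids takes place mainly in the lysosome, where PSAP, the precursor of the saposins that lift lipids out of membranes, works with GLB1 (beta-galactosidase), HEXA (the hexosaminidase alpha subunit) and GALC (galactocerebrosidase). GBA2 is a glucosylceramidase outside the lysosome. PSAP (chr10:71816298-71851251) had the highest level of the members and 781, 785 and 765 CPM in MEC1-CTRL and 1104, 1146 and 1130.1 CPM in MEC1-2B17. It rose in MEC1 (0.54 ± 0.03, adjusted p = 2.95e-11). JVM2 cells had 286, 286 and 271 CPM in JVM2-CTRL and 290.2, 292 and 282 CPM in JVM2-2B17, with overlapping arms (0.04 ± 0.05, adjusted p = 0.66), and its difference between the lines was 0.51 ± 0.06, adjusted p = 1.43e-06. GLB1 had 25.3, 23.8 and 23.4 CPM in MEC1-CTRL and 29.2, 29.8 and 30.4 CPM in MEC1-2B17. It too rose in MEC1 (0.30 ± 0.05, adjusted p = 0.000107), its value in JVM2 being -0.10 ± 0.07, adjusted p = 0.343, with a difference of 0.40 ± 0.09, adjusted p = 0.00127. GALC had 9.02, 8.74 and 7.77 CPM in MEC1-CTRL and 10.01, 9.80 and 9.90 CPM in MEC1-2B17. Its rise in MEC1 (0.22 ± 0.08, adjusted p = 0.035) was lost with DESeq2 (adjusted p = 0.0924) and without replicate 2 or 3 of MEC1-CTRL or replicate 1 or 3 of MEC1-2B17 (up to 0.145), and it was -0.34 ± 0.13, adjusted p = 0.0717 in JVM2, with a difference of 0.56 ± 0.15, adjusted p = 0.00621. GALC passed as lower in JVM2 without replicate 2 of JVM2-2B17 (-0.40, adjusted p = 0.0204) or replicate 1 of JVM2-CTRL (-0.44, adjusted p = 0.0314). HEXA (0.10 and 0.05) and GBA2 (-0.10 and -0.18) passed in neither line.

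Of the 6 lysosomal members (ASAH1, SMPD1, GLB1, HEXA, GALC and PSAP), 4 were higher and 0 lower in MEC1-2B17 (DESeq2, 3 and 0, and 5 and 0 at an unadjusted p under 0.05 in edgeR), and the median log2 fold change was 0.24, against 20.0% higher and a median of 0.00 over all tested genes. Without replicate 3 of MEC1-CTRL, SMPD1 was called lower in MEC1 (-0.215, adjusted p = 0.0479) and GALC was no longer called. In JVM2 the median of the lysosomal members was 0.04 and 0 of the 6 passed in the edgeR fit, nor did any pass with DESeq2 (0 of 6), while ASAH1 (higher) and GALC (lower) had an unadjusted p under 0.05. Both passed without replicate 2 of JVM2-2B17 (adjusted p = 0.0394 for ASAH1 and 0.0204 for GALC). Of the 6, GLB1, GALC and PSAP differed between the lines by the interaction test.

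**Figure D4:**
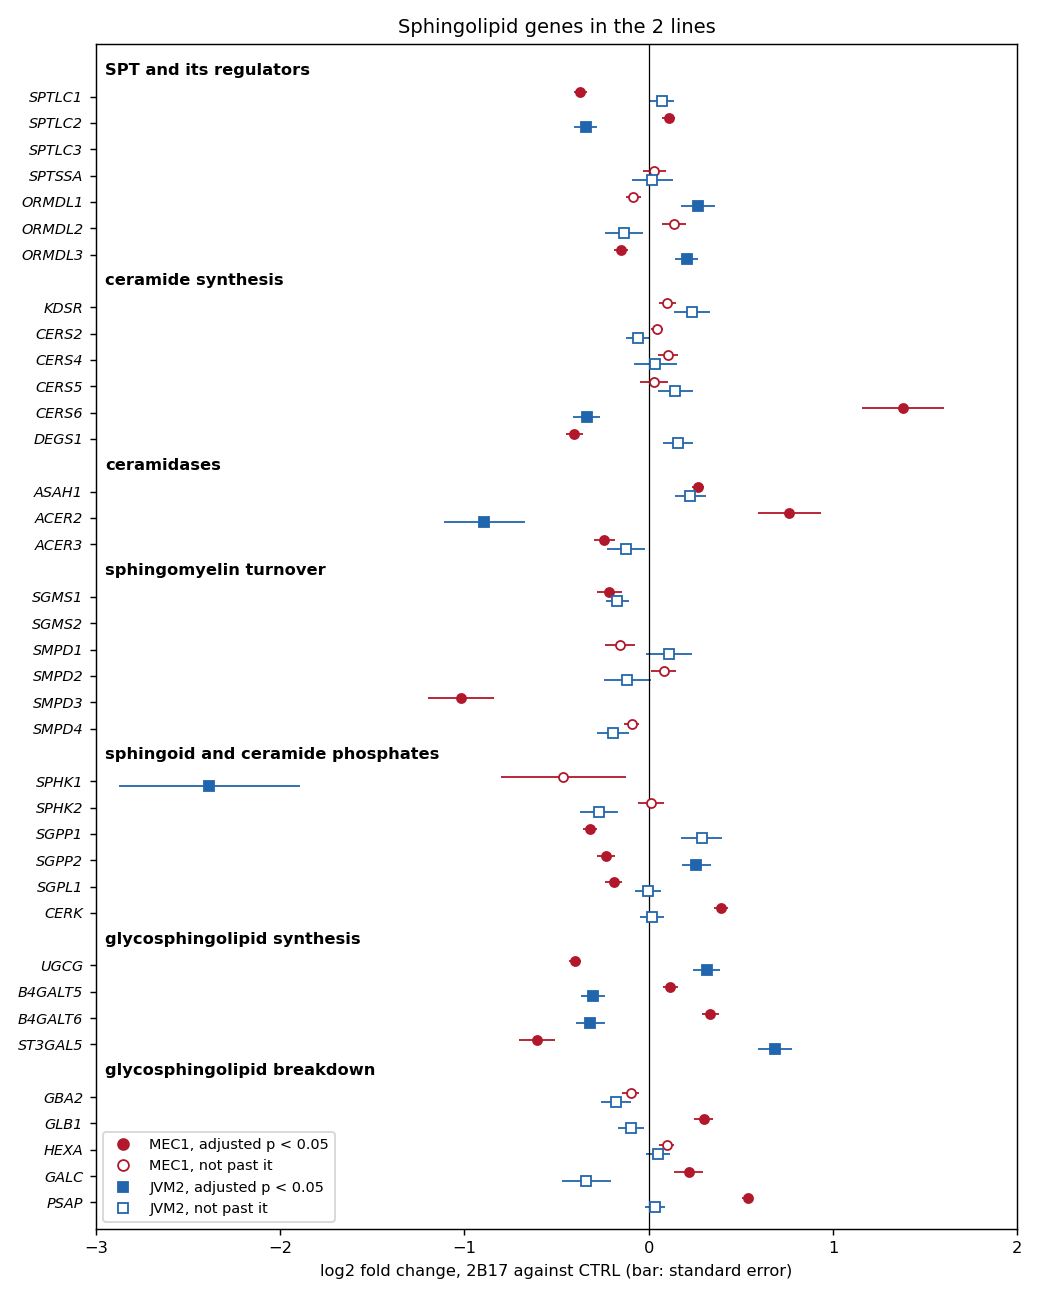
Log2 fold change of 2B17 against CTRL with its standard error for each gene in MEC1 (red circles) and JVM2 (blue squares), ordered by role; filled symbols have an adjusted p below 0.05. SPTLC3 was tested in neither line, SGMS2 in neither, and SMPD3 in MEC1 only. The pairs of filled red and blue symbols lie on opposite sides of 0.

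SPTLC1 and UGCG lie on the long arm of chromosome 9, on which most genes were lower in MEC1-2B17. Of 469 other genes tested there (start at 60 Mb or beyond), 335 (71.4%) fell and 14 rose in MEC1, with a median log2 fold change of -0.39. On the short arm 37 of 161 fell and 36 rose, with a median of -0.03, and on the other chromosomes 20.4% fell and 20.6% rose, with a median of 0.01. The fall of SPTLC1 in MEC1 was 0.02 above the long-arm median on the log2 scale and that of UGCG was 0.01 below it. Of the 51 tested genes within 5 Mb of SPTLC1, 39 fell and 2 rose (median -0.34), and 23 of the 51 had a log2 fold change below that of SPTLC1. Of the 47 within 5 Mb of UGCG, 31 fell and 4 rose (median -0.31), and 19 had a value below that of UGCG. The MEC1 values of both genes thus lay in the middle of those of their neighbours, and the change of the 2 genes and that of the chromosome arm cannot be told apart in these data.

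In JVM2 the long arm was split evenly: 42 of 358 genes rose and 38 fell, with a median of 0.00. Within 5 Mb of UGCG, 5 of 33 rose and 0 fell in the edgeR test (DESeq2, 3 and 0), although 7 were lower at an unadjusted p under 0.05, and 26 of the 33 had a log2 fold change below the 0.31 of UGCG. The rise of UGCG in JVM2 was 0.31 above its neighbours' median. ACER2 and GBA2 lie on the short arm, where 37 of 161 other tested genes fell and 36 rose in MEC1. Of the other lower genes of MEC1-2B17, DEGS1, SGPP1, SGPP2, ST3GAL5, SMPD3, ACER3, SGMS1, SGPL1 and ORMDL3 lie on other chromosomes. The neighbours of these genes were not examined.

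**Figure D5:**
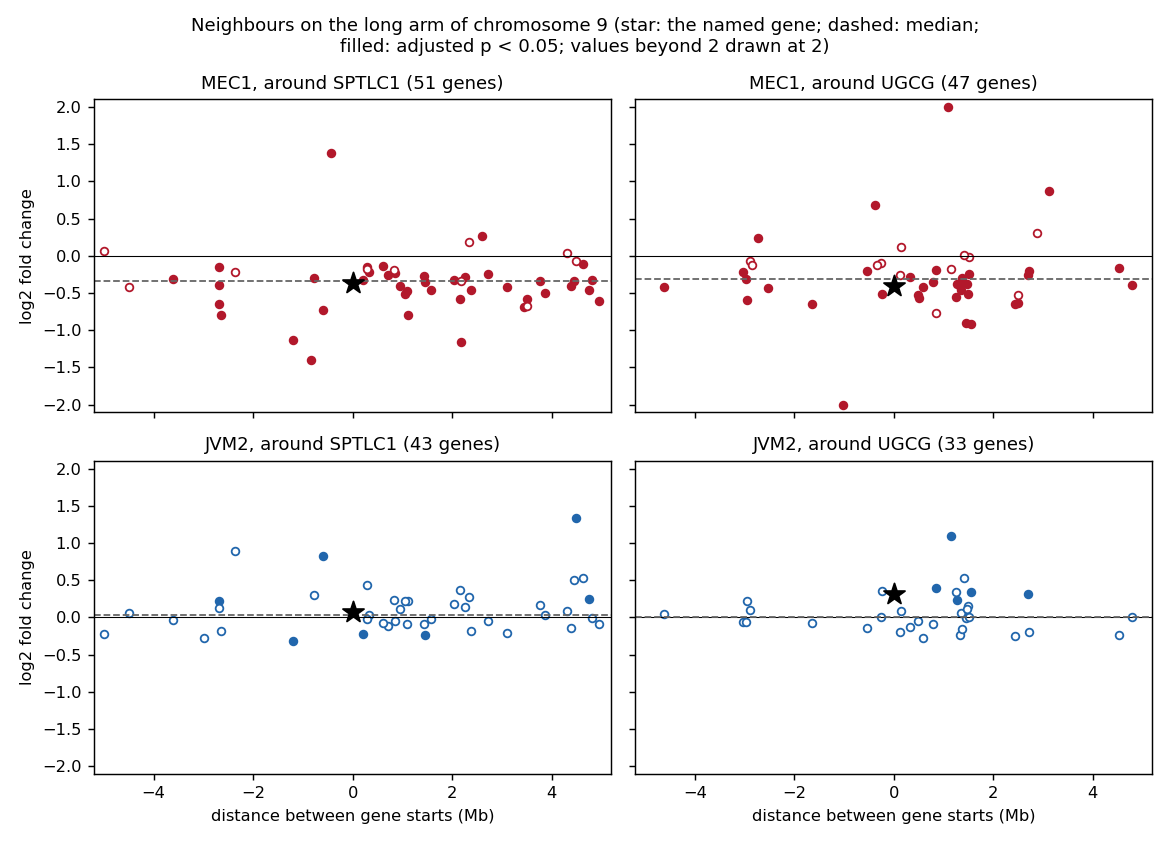
Log2 fold change of the tested genes within 5 Mb of SPTLC1 (left) and UGCG (right), in MEC1 (upper panels) and JVM2 (lower panels), against the distance between gene starts in Mb; the star is the named gene, the dashed line the median of its neighbours, and filled points have an adjusted p below 0.05. In MEC1 the star lies on the bulk of its neighbours below 0, and in JVM2 the star of UGCG lies above a median of 0.00.

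Another 35 sphingolipid genes outside the 37 were listed in at least 1 line. In MEC1, 8 of 31 tested were higher and 12 lower, and in JVM2, 4 of 27 were higher and 4 lower. Over all tested genes 20.0% were higher and 21.6% lower in MEC1, and 14.1% and 15.3% in JVM2, so that the JVM2 counts were near the background. The 8 higher genes in MEC1 were all among the 14 tested genes of breakdown, in which 2 were lower and the median log2 fold change was 0.21, while 4 of 5 genes of synthesis and transport to the Golgi were lower. Of these genes 3 changed in both lines. NAAA, a lysosomal amidase related to acid ceramidase, rose in both (0.54 and 0.58), B4GALNT1, which makes GM2 from GM3, fell in both (-0.63 ± 0.09, adjusted p = 9.21e-06, and -1.09 ± 0.12, adjusted p = 2.81e-05), and the S1P receptor S1PR1 fell in MEC1 (-0.67 ± 0.06, adjusted p = 3.98e-08) and rose in JVM2 (0.27 ± 0.08, adjusted p = 0.0318). B4GALNT1 had 20.3, 22.1 and 19.95 CPM in JVM2-CTRL and 11.3, 8.33 and 9.50 CPM in JVM2-2B17, so that JVM2-2B17 cells had more ST3GAL5 and less B4GALNT1, whereas MEC1-2B17 cells had less of both.

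Changes of at least 1 on the log2 scale among these other genes were few. The sphingomyelinase-like phosphodiesterases SMPDL3A and SMPDL3B moved apart in MEC1, from 69, 56 and 45 to 10, 11 and 8 counts for SMPDL3A (-2.43 ± 0.25, adjusted p = 1.77e-07) and from 1, 3 and 2 to 18, 11 and 21 counts for SMPDL3B (3.09 ± 0.48, adjusted p = 3.61e-05). SPNS2, an S1P exporter, fell in MEC1 (-1.45 ± 0.22, adjusted p = 3.53e-05). In JVM2, A4GALT, the Gb3 synthase, rose (1.05 ± 0.17, adjusted p = 0.000548), as did PPAP2B, a lipid phosphate phosphatase that acts on extracellular S1P (1.12 ± 0.14, adjusted p = 8.82e-05).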

How the data were processed

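RNA was sequenced in 3 biological replicates of the CTRL and of the 2B17 cells of each line. Each group is 1 engineered population, and p-values measure the spread between its samples only. Per the labels and the study's methods, the authors trimmed reads with Trimmomatic, aligned them to hg38 with TopHat2 2.0.14 and deposited raw HTSeq counts per gene, 1 table a line. The normalized values, fold changes and p-values of the authors in the same tables were not used. The tables hold genes with at least 10 counts over 6 libraries. The strandedness of the libraries is not given in the sources used here, so reads of overlapping and antisense genes may be mixed.

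Each line was fitted separately (edgeR 4.0.16, R 4.3.3; TMM, filterByExpr, quasi-likelihood F-test, two-sided), and the difference between the lines as the line by arm interaction over 12 libraries. P-values were adjusted by Benjamini-Hochberg over all tested genes, with 0.05 as threshold, and SE was derived from F. CPM are TMM-scaled, and levels per kilobase divide by the canonical transcript of GENCODE release 44. DESeq2 1.42.0, other scalings and filters and fits without 1 library were alternatives. Scripts were tested on simulated data. Full values are given for members past the threshold in both lines, or in 1 with a log2 size of at least 0.5, for those that differ between the lines, for SPTLC1 and UGCG and for leading isozymes, and for other sphingolipid genes with a size of at least 1. The NAAA and S1PR1 values were chosen after they were seen. Members and gene lists were chosen with earlier results of these data known. No 2 replicates agreed within sampling noise.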

Additional observations from a re-analysis of the deposited data

Results flagged for a closer look

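The change from CTRL to 2B17 differed between MEC1 and JVM2 for 18 of the 35 members in the interaction fit (edgeR quasi-likelihood test, n = 3 per group). The log2 fold change in MEC1 minus that in JVM2 was above 0 for 10 genes: SPHK1 (1.96), CERS6 (1.72), ACER2 (1.66), B4GALT6 (0.65), GALC (0.56), PSAP (0.51), SPTLC2 (0.46), B4GALT5 (0.42), GLB1 (0.40) and CERK (0.38). It was below 0 for 8: ST3GAL5 (-1.29), UGCG (-0.71), SGPP1 (-0.60), DEGS1 (-0.56), SGPP2 (-0.48), SPTLC1 (-0.44), ORMDL3 (-0.35) and ORMDL1 (-0.35). UGCG and SPTLC1 lie on the long arm of chromosome 9, whose genes had a median log2 fold change of -0.39 in MEC1, and the change of these 2 genes and that of the arm cannot be told apart. No group had the 4 or more samples needed to look for a single sample far from the others.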

How the results depend on the processing

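The lines differ in depth and in the control construct, so that a gene past the threshold in MEC1 alone is not thereby shown to differ from JVM2. Values of genes below about 3 CPM (CERS6 in MEC1, ACER2, SPHK1, SMPD3, SGMS2) rest on few counts, and levels of CERS6, ORMDL2, SMPD3 and SMPD4 on transcripts that share sequence with other genes.

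The 9 members that moved oppositely were 9 to 11 under 8 alternatives with all libraries. The count of members that moved the same way, 0, became 1 without the low-count filter (SMPD3) and 1 with the replicate block (SGMS1), and was 0 to 2 when single libraries were left out. Members higher in JVM2-2B17 numbered 2 to 5 without single libraries: 3 without replicate 1 of JVM2-CTRL, 2 without its replicate 3 and 3 without replicate 3 of JVM2-2B17. All other counts of members, and those of the long arm of chromosome 9 under 2 other scalings, stayed within 1.5 times the value given. Of the called members' values under alternatives with all libraries, 4 lost the call in MEC1 (GALC and SGMS1, each with DESeq2 and with both tools required) and 3 in JVM2 (ORMDL1), and in no alternative did a called change turn its direction. In fits without 1 library, 13 values in MEC1, 13 in JVM2 and 6 of the difference fit fell short of the threshold.

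The main fits did not pair samples by replicate number. Deviations of same-numbered samples correlated at -0.0904, -0.0455 and 0.0676 in MEC1 and 0.1076, 0.1364 and -0.0133 in JVM2. Those of differently numbered samples correlated at -0.0924 to 0.1453 in MEC1 and at -0.1441 to 0.084 in JVM2. Whether the numbers pair the samples of JVM2 is not settled by these values. A fit with that number as a replicate block had 10 members higher and 12 lower in MEC1, 7 higher and 9 lower in JVM2, 11 that moved oppositely and 18 that differed between the lines. Over all genes the block gave 6897 calls in MEC1 and 4236 in JVM2, against 6909 and 3821 in the main fits.

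Isozyme shares moved with the length used. With merged exon lengths, ASAH1 held 47.9% of the ceramidases in JVM2-CTRL, and CERS2 held 36.5% of the ceramide synthases there against 50.3% for CERS6. The choice between canonical transcript and merged exon lengths was made after seeing the data. SGPP1 fell to 40.3% of the S1P phosphatases in JVM2-CTRL when counts were not divided by length. With 2 Mb in place of 5 Mb the MEC1 medians around SPTLC1 and UGCG were -0.32 and -0.37.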
